A study of Mus musculus with 18 samples.

Results

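The 8 arrays described here measured gene expression in pancreatic islets of lean mice at 2 ages, 4 arrays at 6 weeks and 4 at 16 weeks. They are the lean controls among the 18 samples of the study: every lean array of the larger value table, 2 at each age from C57BL/KsJ mice (KsJ below) and 2 at each age from C57BL/6J mice (6J below). The labels call all 8 lean controls, from the breeding colonies of the Garvan Institute with food and water at will, and give no genotype or allele beyond that. KsJ is the background of the db/db mice of the study and 6J that of its ob/ob mice, 2 obese models that lack the leptin receptor or leptin. 1 further lean KsJ array of 16 weeks lies in a smaller table of another array design and entered a single alternative. Nothing in the labels tells whether a group's 2 arrays hold different animals, 1 animal or pooled animals, so p-values measure only the spread between these samples. Values are log2 signals, so that a difference of 1 is a doubling, and differences are given as 16 minus 6 weeks with strain as a block in limma (± SE, n = 4 arrays per age).

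Pancreatic islets are small organs within the pancreas. Their beta cells secrete insulin, and alpha, delta and PP cells secrete glucagon, somatostatin and pancreatic polypeptide. Beta cells of young rodents still divide, and the share that divides is known to decline through the weeks after weaning. A cell that divides switches on genes in order, first those that supply and copy DNA, later the cyclins, kinases, motor proteins and scaffolds that build the spindle and split the cell. Islets also hold capillary endothelium, pericytes, stellate cells and macrophages. The surrounding exocrine tissue and, through the dissection, gut or lymph node can enter an islet preparation. In RNA from whole islets, fewer cells of a type and less RNA per cell cannot be told apart.

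The arrays carried the signal of islet tissue: the insulin gene Ins2 lay between 11.60 and 12.14 on all 8, and the islet amyloid polypeptide gene Iapp between 12.01 and 12.57. Neither gene bears on the strain, age or lean status of the labels. Of the 8, 2 stood apart from their partners. KsJ 16-week replicate 2 had a mean over 26 acinar genes of 12.12 against 9.20 on replicate 1, and 7.30 to 10.12 on the arrays of the other 3 groups. The chymotrypsin gene Ctrc stood at 13.20 on that array and 9.53 on its partner, and Ptf1a, an acinar transcription factor, at 8.24 and 3.96. 6J 6-week replicate 2 had a mean over 21 enterocyte genes of 9.87 against 4.11 on replicate 1, with the sucrase-isomaltase gene Sis at 10.94 and 2.56. Across clusters, the 2 partner arrays correlated at 0.916 in KsJ islets of 16 weeks and 0.960 in 6J islets of 6 weeks, against 0.976 and 0.980 in the other 2 groups. Sex was not balanced: the Y-linked gene Uty stood between 7.54 and 7.86 on replicate 1 of KsJ 6 weeks, KsJ 16 weeks and 6J 6 weeks, and between 2.17 and 2.49 on the other 5 arrays, which had Xist, the RNA of the inactive X chromosome, between 8.90 and 9.60. Each sample title starts with a letter, from A to D at 6 weeks and from E to H at 16 weeks, followed by a code that differs between KsJ and 6J. What they mark is not given in the labels: age cannot be told apart from the letter, nor strain from the code.

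Across 15526 genes tested, none passed the test, and members of a list of S and M phase genes made up 10 of the 20 with the smallest p. With strain as a block, 0 genes were called at a limma adjusted p under 0.05 (0% of those tested), and the smallest adjusted p was 0.729. At an unadjusted p under 0.05 there were 784 genes (5.05%), 611 lower at 16 weeks (3.94%) and 173 higher (1.11%). All 4 arrays of 16 weeks lay below all 4 of 6 weeks for 419 genes (2.7%) and above them for 91 (0.586%). Within each strain, both older arrays lay below both younger ones in 869 genes (5.6%) and above them in 219 (1.41%). The 20 genes with the smallest p were all lower at 16 weeks. The S and M phase list had 38 genes, of which 36 were among the 15526 tested. Pbk, Ckap2 and Dtl, described below, were among the 20 but outside that list. Without KsJ 6-week replicate 2 the counts at an unadjusted p under 0.05 were 250 lower and 120 higher, without KsJ 6-week replicate 1 330 and 89, without KsJ 16-week replicate 1 629 and 462, and without KsJ 16-week replicate 2 737 and 275. The median difference over all genes was -0.13, and 69.85% of the genes lay below 0, so that each list below is set beside that shift. Quantile normalization moved the median to -0.03 and the counts at an unadjusted p under 0.05 to 390 lower and 256 higher, and it called 0 genes too.

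The S and M phase list held 36 tested genes, of which 35 lay below 0 at 16 weeks. Their median difference was -0.74, beside -0.13 for all genes, and it was -0.89 in KsJ and -0.74 in 6J islets, where the medians of all genes were -0.26 and 0.04. None of the 36 was called, while 25 had an unadjusted limma p under 0.05 and a lower value at 16 weeks, beside 3.94% of all genes. In 20 every 16-week array lay below every 6-week array, beside 2.7% of all genes, and in 23 the ages were separate that way within each strain, beside 5.6%. The mean over the 36 genes stood at 5.49 and 5.67 on the KsJ and at 5.25 and 5.70 on the 6J arrays of 6 weeks. At 16 weeks it stood at 4.78 and 4.54 in KsJ and at 4.63 and 4.85 in 6J islets. The 2 ages did not overlap. The enterocyte-rich 6J array of 6 weeks was the highest and the acinar-rich KsJ array of 16 weeks the lowest of the 8. At 6 weeks the mean over 15 lymphocyte genes was higher on the same arrays as this mean, at 5.08 and 5.38 on replicate 2 of KsJ and 6J against 3.68 and 3.80 on replicate 1, and its part was not tested. Without KsJ 6-week replicate 2 the median of the S and M phase list was -0.72 with 21 of 36 at that p, and without 6J 6-week replicate 2 -0.73 with 21. Without the enterocyte-rich and the acinar-rich array the median was -0.68 and 23 of the 36 had an unadjusted p under 0.05, and a fit with the means of the acinar and of the enterocyte genes as covariates gave -0.72 and 24. The exception above 0 was Cdca8, a subunit of the chromosomal passenger complex, at 0.11 ± 0.18, named after its value was seen. It lay between 3.07 and 3.81 on all arrays, and its difference was -0.04 with array weights and -0.03 without KsJ 16-week replicate 2.

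Mki67 encodes the Ki-67 protein of dividing cells and had the lowest difference of the list. It stood at 6.29 and 6.63 on the KsJ and 6.31 and 6.91 on the 6J arrays of 6 weeks, and at 5.08, 3.90, 4.52 and 5.41 in the same order at 16 weeks. Every array of 16 weeks was below every array of 6 weeks, by -1.81 ± 0.32 on average (limma adjusted p = 0.729), with -1.97 in KsJ and -1.64 in 6J islets. Over all settings the difference ran from -2.02 to -1.36 and the adjusted p from 0.135 to 1.0. Top2a, the topoisomerase that untangles replicated chromosomes, stood at 5.93, 6.21, 5.44 and 6.04 at 6 weeks and at 4.60, 4.34, 4.30 and 4.83 at 16 weeks, again without overlap. Its difference was -1.39 ± 0.21 (limma adjusted p = 0.729).

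Ccna2, the cyclin A of S phase and mitotic entry, lay at 6.08, 6.39, 5.46 and 6.35 at 6 weeks and at 4.95, 4.70, 4.55 and 4.85 at 16 weeks, a difference of -1.31 ± 0.22. Ube2c, the ubiquitin-conjugating enzyme that serves the anaphase-promoting complex, lay at 5.27, 5.46, 4.83 and 5.37 and then at 4.47, 4.29, 4.20 and 4.18, a difference of -0.95 ± 0.16. In both genes the 4 older arrays all sat below the younger ones. Anln, the anillin that organises the cleavage furrow, differed by -1.28 ± 0.20, and 6J 6-week replicate 2, the enterocyte-rich array, was its highest at 5.42 beside 4.77 to 4.88 on the other 3 arrays of 6 weeks. Genes outside the list that ranked with these were Pbk, a mitotic kinase, at -1.20 ± 0.18, and Ckap2, a spindle protein, at -1.17 ± 0.19. Dtl, a substrate receptor that helps to limit DNA replication to a single round, was also among them at -1.16 ± 0.19. Ccna2, Ube2c, Anln, Pbk, Ckap2 and Dtl each had a limma adjusted p of 0.729, and in each the 2 ages did not overlap.

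**Figure D1:**
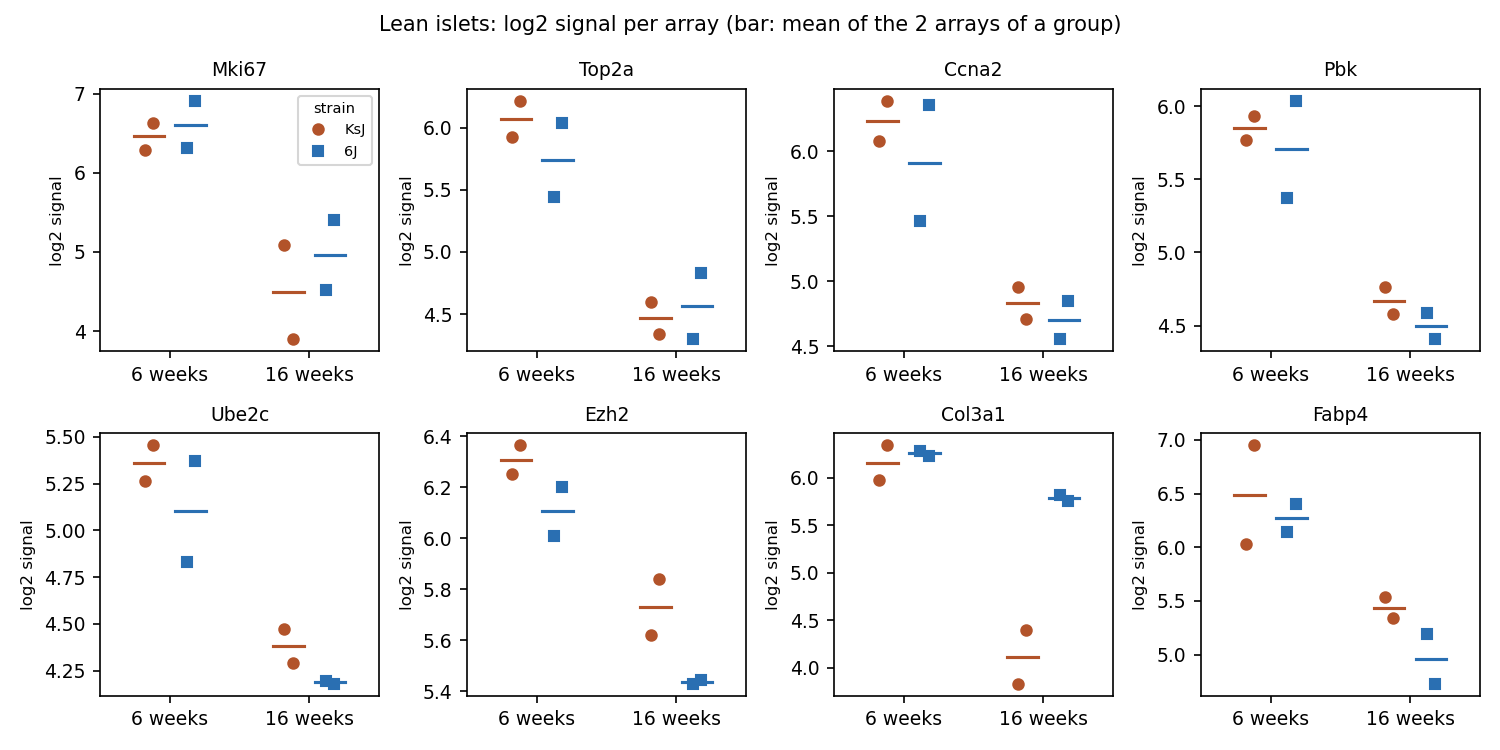
Log2 signal of 8 genes in lean islets, 1 point per array, by age on the horizontal axis and strain by colour and marker; the bar is the mean of the 2 arrays of a group. The 5 cell-cycle genes and Ezh2 lie lower on all 4 arrays of 16 weeks, as do Col3a1 and Fabp4, with Col3a1 at 3.83 and 4.40 in KsJ and 5.82 and 5.76 in 6J islets of 16 weeks.

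Divided by role after the values were seen, the list was uneven. The 12 genes of DNA replication and nucleotide supply all lay below 0 (69.85% of all genes), with a median of -0.41 and a range from -1.01 to -0.11. Their median was -0.52 in KsJ and -0.25 in 6J islets. At an unadjusted limma p under 0.05, 4 were lower (3.94% of all genes). The 24 cyclins, kinases, motor and spindle genes had a median of -1.03, with -0.97 in KsJ and -1.10 in 6J islets, and 23 lay below 0 (69.85% of all genes). Of these 24, 21 were lower at an unadjusted p under 0.05 (3.94%) and 17 were lower without overlap between the ages (2.7%). A difference of at least 1 downward was found in 13, and the share of all genes for this was not counted. The difference between the 2 parts of the list was not tested. Among the mitotic genes, picked after their values were seen, Prc1, which bundles microtubules of the midzone, differed by -1.70 ± 0.32, Ect2, the exchange factor that starts cytokinesis, by -1.63 ± 0.34, and Kif11, the motor that separates spindle poles, by -1.53 ± 0.26. Among the replication genes Mcm5, a subunit of the replicative helicase also picked after its value was seen, was lowest at -1.01 ± 0.42. It lay between 5.88 and 6.02 at 6 weeks, but at 5.93 and 3.69 on the KsJ arrays of 16 weeks, so that its ages overlapped.

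Promoters of the list shared letters, which is a trait of the genes chosen for it and not a result of the arrays. Shown are 4 promoters: those of Top2a, Ube2c and Mki67 carry both motifs, and that of Ezh2, described below, carries CCAAT alone. Of the 36 genes, 30 had a promoter in the RefSeq table (GRCm38.p6), and the 250 bases before the start were searched on both strands for CCAAT, the letters bound by NF-Y, and TTTGAA, the core of the cell cycle genes homology region that the DREAM and MuvB complexes read. CCAAT occurred in 25 of the 30 (83.3%) and in 35.5% of the 12135 tested genes with a promoter, and at least 2 copies in 56.7% against 12.6%. TTTGAA occurred in 9 of the 30 against 10.9% of those tested genes, and all 9 held CCAAT too, against 4.13%. Capitals mark both motifs: CCAAT, or ATTGG where it lies on the other strand, and TTTGAA, which then appears as TTCAAA. Each promoter is read 5′ to 3′ on the strand of the gene, with the start just after the last base. Copies may overlap, as once in Ube2c, where CCAAT and its reverse share 2 bases and count as 2. These matches are letters in a window, and the arrays measured no binding.
Top2a, chr11:99024190-99024439, minus strand: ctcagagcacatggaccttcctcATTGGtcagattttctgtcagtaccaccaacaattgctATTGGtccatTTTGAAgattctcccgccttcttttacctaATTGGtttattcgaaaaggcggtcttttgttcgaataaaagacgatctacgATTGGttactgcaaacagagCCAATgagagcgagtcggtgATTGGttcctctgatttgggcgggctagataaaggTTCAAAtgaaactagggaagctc
Ube2c, chr2:164769679-164769928, plus strand: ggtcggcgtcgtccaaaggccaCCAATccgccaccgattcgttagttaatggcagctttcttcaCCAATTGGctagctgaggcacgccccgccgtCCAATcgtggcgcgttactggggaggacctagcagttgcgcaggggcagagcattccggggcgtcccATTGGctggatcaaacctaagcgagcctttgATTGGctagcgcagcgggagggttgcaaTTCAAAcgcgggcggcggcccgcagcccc
Mki67, chr7:135716380-135716629, minus strand: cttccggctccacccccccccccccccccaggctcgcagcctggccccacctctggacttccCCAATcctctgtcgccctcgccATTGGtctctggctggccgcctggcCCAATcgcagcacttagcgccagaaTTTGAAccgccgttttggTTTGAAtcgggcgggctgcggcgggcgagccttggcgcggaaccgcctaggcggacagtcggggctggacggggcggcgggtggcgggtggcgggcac
Ezh2, chr6:47595031-47595280, minus strand: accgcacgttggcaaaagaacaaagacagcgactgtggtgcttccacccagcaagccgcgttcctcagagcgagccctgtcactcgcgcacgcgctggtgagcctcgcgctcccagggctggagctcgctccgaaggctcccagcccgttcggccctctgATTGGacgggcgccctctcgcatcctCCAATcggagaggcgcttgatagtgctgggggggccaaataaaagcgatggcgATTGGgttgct

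Top2a held 6 copies of CCAAT and 2 of TTTGAA, the nearer of the latter 23 bases before the start. Ube2c held 6 and 1, with TTTGAA 29 bases before the start. Mki67 held 3 and 2, and Ezh2 3 and 0. Among the 335 genes with a promoter whose 4 older arrays all lay below the younger ones, 38.8% held CCAAT and 6.57% both motifs. Among the 59 with a promoter whose 4 older arrays all lay above, 39.0% held CCAAT and 10.2% both. Of the 23 beta-cell maturity genes with a promoter, 34.8% held CCAAT and none of the 23 held both. These shares are descriptions and were not tested.

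Genes that govern entry into the cycle lay nearer to the median of all genes. The list of G1 cyclins and CDK inhibitors had a median of -0.32 over 21 genes, -0.56 in KsJ and -0.04 in 6J islets (all genes -0.26 and 0.04), with 3 at an unadjusted limma p under 0.05, all lower (3.94% of all genes). That count was 5 without KsJ 16-week replicate 1 and 1 without both arrays that stood apart. Ezh2, the methyltransferase that silences the Cdkn2a locus in young beta cells, lay at 6.25, 6.37, 6.01 and 6.20 at 6 weeks and at 5.62, 5.84, 5.43 and 5.45 at 16 weeks, a difference of -0.62 ± 0.14 (limma adjusted p = 0.746) that was -0.58 in KsJ and -0.67 in 6J islets. The ages of Ezh2 did not overlap. The inhibitor gene Cdkn2a itself, from which p16 is made and which is known to rise with age in islets, lay between 4.15 and 4.38 at 6 weeks and between 3.94 and 4.68 at 16 weeks. Its difference was 0.00 ± 0.17, with -0.25 in KsJ and 0.25 in 6J islets, and its sign turned in 7 settings.

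E2f2, an activating E2F factor, differed by -0.51 ± 0.18, and Rb1, the retinoblastoma protein that holds E2F factors, by -0.38 ± 0.14. Cdkn2c, the gene of the inhibitor p18, differed by -0.50 ± 0.22, and KsJ 16-week replicate 2 was its lowest array at 5.10 beside 5.84 to 5.95 on the other 3 of that age. In these 3 genes every array of 16 weeks lay below every array of 6 weeks, as in 5 of the 21 genes of the list (2.7% of all genes). Cdkn1a, the gene of p21, lay between 7.89 and 8.79 at 6 weeks and 7.17 and 8.54 at 16 weeks. Its difference of -0.44 ± 0.30 was -0.92 in KsJ and 0.04 in 6J islets, and array weights turned it to 0.21.

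The age difference of the division genes stood in both strains, whereas the counts over all genes differed between the strains. In KsJ islets 3055 genes (19.7%) had an unadjusted limma p under 0.05, 2749 of them lower (17.7%) and 306 higher (1.97%), and 0 were called (smallest adjusted p 0.233). The count of lower genes was 1015 with quantile normalization, 1194 with array weights, 991 without KsJ 6-week replicate 1, 1057 without replicate 2 and 5674 without KsJ 16-week replicate 1. In 6J islets there were 315 (2.03%), 173 lower (1.11%) and 142 higher (0.915%), and 0 were called (smallest adjusted p 1). Without 6J 6-week replicate 1 there were 796 lower and 121 higher, and without any 1 of the other 7 lean arrays 78 to 341 lower and 84 to 507 higher. Across genes, which are not independent replicates, the differences of the 2 strains correlated at -0.154, which is given as a description. The test of the difference between strains called 0 genes (1571 at an unadjusted p under 0.05, 10.1%; smallest adjusted p 0.475). In KsJ islets of 16 weeks, 1 of the 2 arrays was the acinar-rich one, and in 6J islets of 6 weeks 1 of 2 was the enterocyte-rich one. The upper quartile over clusters was 5.96 and 5.76 on the KsJ arrays of 16 weeks, beside 6.17 to 6.21 on the other lean arrays. Its part in the strain difference was not tested. Leaving out KsJ 16-week replicate 1, so that the acinar-rich array alone stood for its group, gave 5952 calls in KsJ, whereas leaving out the acinar-rich array gave 1. Leaving out 6J 6-week replicate 1 gave 271 calls in 6J islets, all lower at 16 weeks. In each case the lone array was assumed to vary like the other groups.

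**Figure D2:**
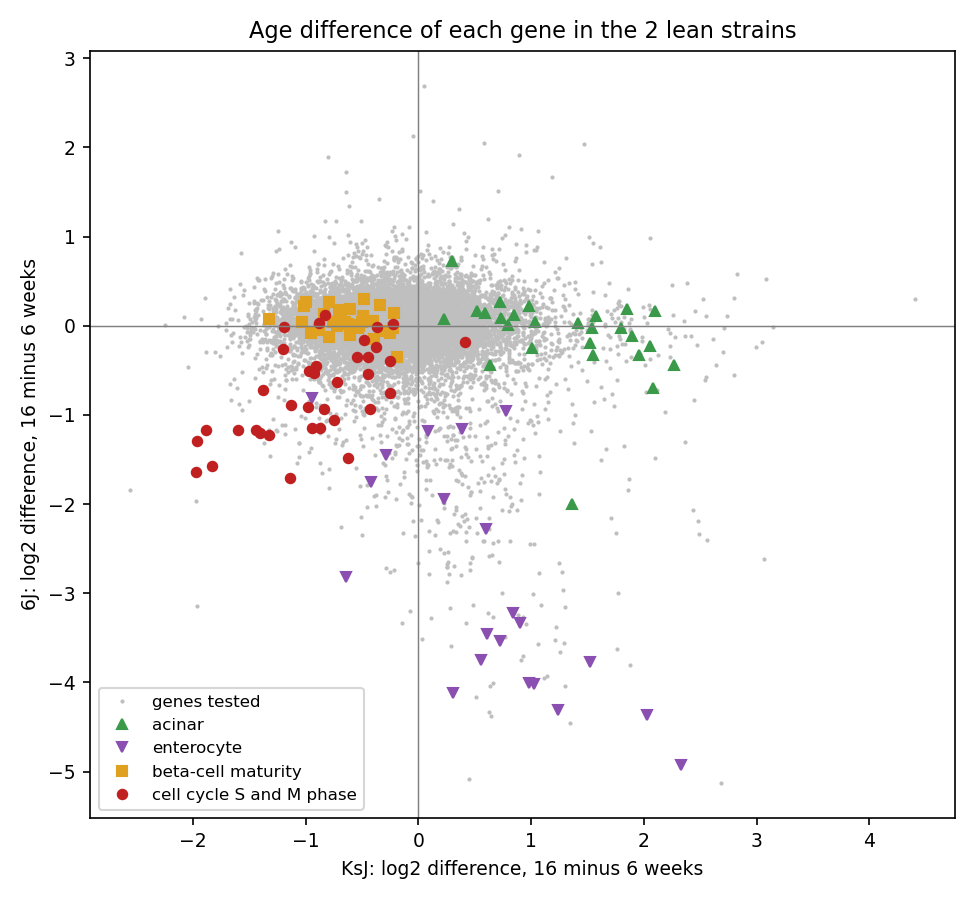
Each point is 1 gene, with its log2 difference between 16 and 6 weeks in KsJ islets on the horizontal axis and in 6J islets on the vertical axis. The S and M phase genes (median -0.89 and -0.74) lie low on both axes, the beta-cell maturity genes (-0.61 and 0.04) low in KsJ, the acinar genes (1.39 and 0.02) high in KsJ and the enterocyte genes (0.61 and -3.33) low in 6J islets.

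Genes of mature beta-cell function lay slightly lower at 16 weeks in KsJ islets and level in 6J islets. All 33 tested genes of the beta-cell maturity list were below 0, with a median of -0.27 beside -0.13 for all genes, but none had an unadjusted p under 0.05. The median was -0.61 in KsJ and 0.04 in 6J islets, beside -0.26 and 0.04 for all genes. The mean over the 33 genes was 9.92 and 9.91 on the KsJ arrays of 6 weeks, 9.64 and 8.94 on those of 16 weeks, 9.97 and 9.81 on the 6J arrays of 6 weeks and 9.92 and 9.96 on those of 16 weeks. The lowest value belonged to the acinar-rich array. Without it the median was -0.08 with 25 of 33 below 0, and without both arrays that stood apart -0.14 with 28 below 0.

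The single genes of this list had small differences. Ins2 differed by -0.18 ± 0.14, and Ucn3, the urocortin that marks mature beta cells, by -0.26 ± 0.20, with arrays of 11.36, 11.43, 11.51 and 11.30 at 6 weeks and 11.19, 10.54, 11.40 and 11.42 at 16 weeks. Mafa, a transcription factor of mature beta cells, differed by -0.21 ± 0.21, -0.60 in KsJ and 0.18 in 6J islets, and by 0.10 with array weights. Slc2a2, the glucose transporter of rodent beta cells, differed by -0.28 ± 0.21, Glp1r, the incretin receptor, by -0.13 ± 0.15 and Iapp by -0.17 ± 0.15. Pdx1, the beta-cell master factor, differed by -0.46 ± 0.21, and Ffar1, a fatty acid receptor that boosts insulin secretion, by -0.63 ± 0.31. Ffar1 stood at 10.39 and 10.31 on the KsJ arrays of 6 weeks and at 9.37 and 8.67 on those of 16 weeks, both lower, whereas the 6J arrays stood at 10.56 and 10.30 and then at 10.42 and 10.58. The difference between strains was -1.40 (limma adjusted p = 0.475). Nkx6-1, another beta-cell factor, was at -0.26 ± 0.21, Ppp1r1a, a phosphatase inhibitor rich in beta cells, at -0.36 ± 0.20, and Kcnj11, the pore of the ATP-sensitive potassium channel, at -0.46 ± 0.27. The limma adjusted p of these genes lay between 0.746 and 0.772.

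The list of neonatal and immature beta-cell genes had a median of -0.19 over 25 genes, with 18 below 0 (69.85% of all genes). At an unadjusted limma p under 0.05, 1 was lower (3.94% of all genes). Neurog3, the endocrine progenitor factor, lay at 7.09 and 6.46 in KsJ islets of 6 weeks and at 5.61 and 5.65 at 16 weeks, and between 7.04 and 7.24 on all 4 arrays of 6J. Its strain difference of -1.18 had a limma adjusted p of 0.475. Cd81, a surface protein of immature beta cells, differed by -0.32 ± 0.16, and Aldh1a3, an enzyme of retinoic acid synthesis, by -0.58 ± 0.31. Nnat, an imprinted gene of beta-cell secretion, stood at 7.68 and 7.97 in KsJ islets of 6 weeks and at 6.19 and 6.93 at 16 weeks, against 7.68 and 8.09 and then 7.85 and 7.77 in 6J islets, an average difference of -0.67 ± 0.29. Mest, an imprinted gene of growth, lay at 7.65 and 7.14 and then 5.93 and 5.94 in KsJ, and at 6.69 and 6.70 and then 6.57 and 6.69 in 6J islets. Its difference was -0.76 ± 0.29, and -1.46 against -0.07 by strain (strain difference limma adjusted p = 0.475). The list of imprinted growth genes had a median of -0.18 over 22 genes, -0.58 in KsJ and 0.22 in 6J islets (all genes -0.26 and 0.04). Without KsJ 16-week replicate 2 that median was -0.02, with 13 of the 22 below 0, and with array weights it was 0.09, with 6 below 0. Igf2, an imprinted fetal growth factor, differed by -0.16 ± 0.15 and by 0.07 with array weights. Genes disallowed in beta cells, which mature beta cells keep off, had a median of -0.28 over 21 genes, 0.11 in KsJ and -0.52 in 6J islets. Without 6J 6-week replicate 2 that median turned to 0.07, with 9 below and 12 above 0, and without KsJ 16-week replicate 2 it was -0.55. Among them, Itih5 lay at 4.86, 4.89, 5.71 and 5.31 and then at 4.25, 4.54, 4.49 and 4.52, a difference of -0.74 ± 0.18, and Rest, a repressor of neuronal genes, differed by 0.47 ± 0.23.

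The other endocrine hormones did not separate the ages. Gcg, the glucagon gene, lay between 13.27 and 13.48 at 6 weeks and between 13.09 and 13.44 at 16 weeks, a difference of -0.09 ± 0.13. Sst, the somatostatin gene, differed by -0.16 ± 0.14, Ppy, the pancreatic polypeptide gene, by -0.12 ± 0.13 and Pyy, peptide YY, by -0.30 ± 0.18. Array weights turned Gcg to 0.05 and Sst to 0.01. The alpha-cell list had a median of -0.18 over 13 genes, -0.54 in KsJ and 0.29 in 6J islets, and the delta-cell list of -0.17 over 10 genes, -0.56 and 0.17 (all genes -0.26 and 0.04). The same split by strain held for 31 genes of secretory granules and exocytosis (-0.62 and 0.08) and for 21 potassium and calcium channel genes (-0.60 and 0.07), and none of these 4 lists had a member at an unadjusted p under 0.05 with strain as a block. Without the acinar-rich KsJ 16-week replicate 2 the median with both strains was 0.04 for alpha-cell genes (5 below and 8 above 0), -0.12 for delta-cell genes, -0.05 for granule genes (main value -0.23) and -0.02 for channel genes (-0.27). Array weights gave 0.20 for alpha-cell and 0.07 for delta-cell genes.

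**Figure D3:**
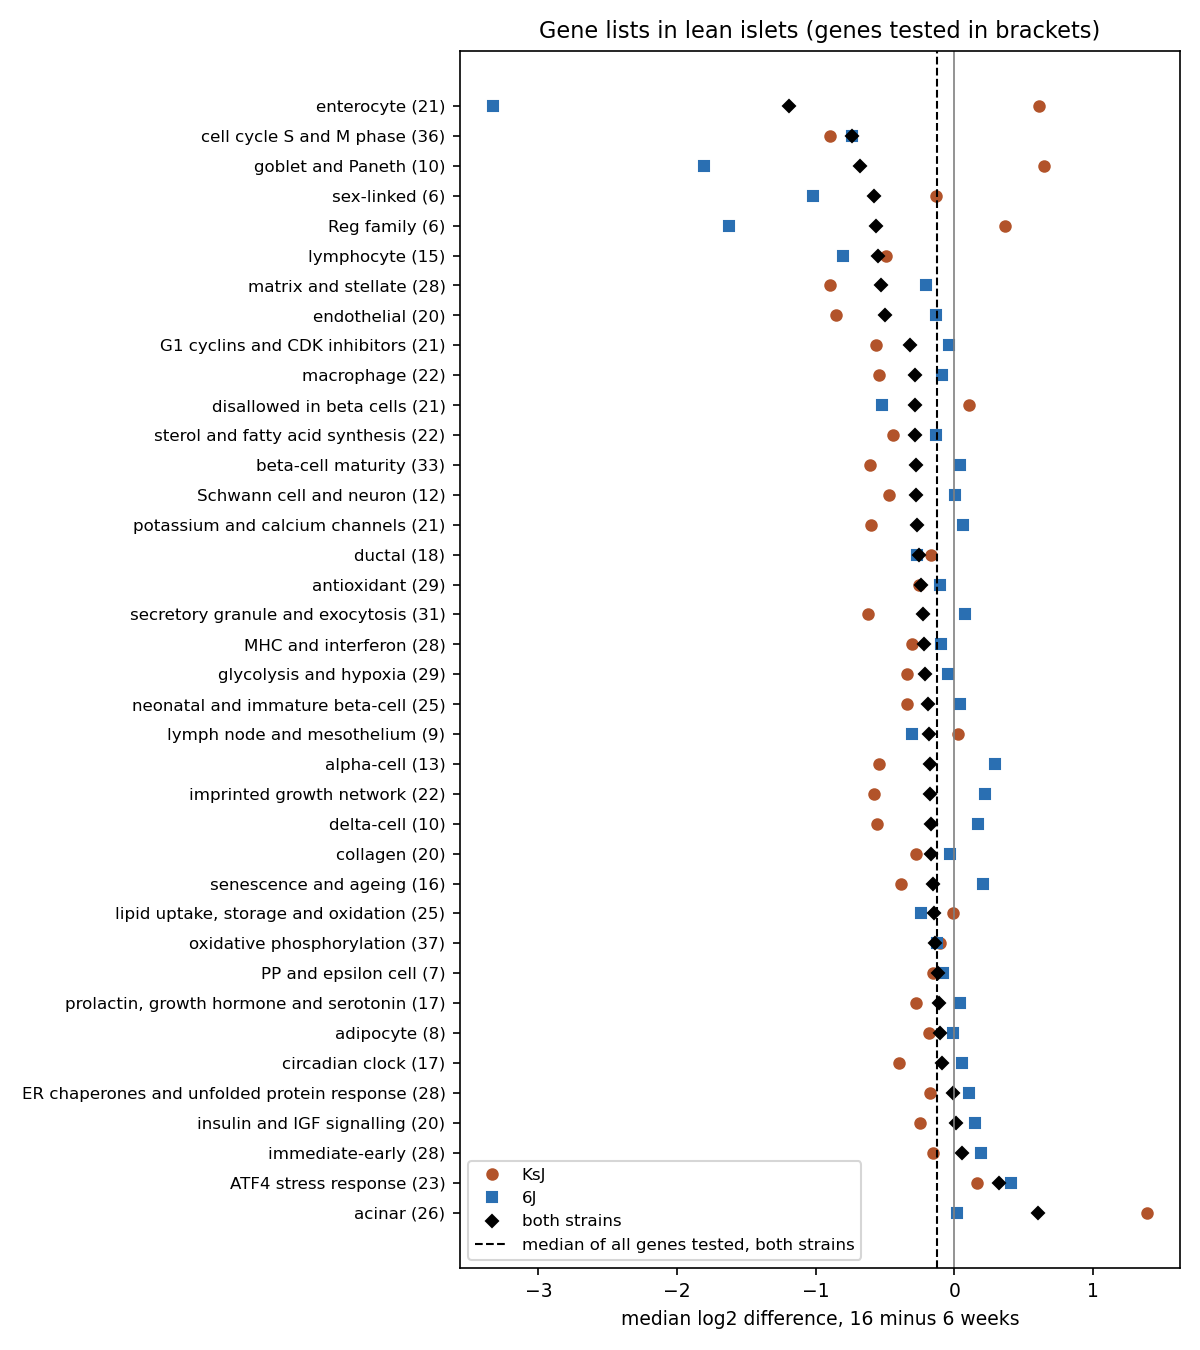
Median log2 difference between 16 and 6 weeks of each gene list with at least 6 tested genes (number tested in brackets), for both strains together and for each strain; the dashed line is the median of all genes with both strains (-0.13). The S and M phase list lies near -0.74 to -0.89 in both strains, whereas the enterocyte, goblet and Reg lists lie far below 0 in 6J and above 0 in KsJ islets.

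Matrix genes also lay lower at 16 weeks, farther in KsJ than in 6J islets. The matrix and stellate list had a median of -0.53 over 28 genes, -0.90 in KsJ and -0.21 in 6J islets, where the medians of all genes were -0.26 and 0.04. Of the 28, 10 were lower at an unadjusted limma p under 0.05 and 3 without overlap between the ages (beside 3.94% and 2.7% of all genes). Without both arrays that stood apart the median was -0.39 and 11 were lower at that p; without KsJ 6-week replicate 2 alone 3 were, and without either KsJ array of 16 weeks 6 were. Of 20 collagen genes, which had a median of -0.17, 4 were lower at an unadjusted p under 0.05, all of them fibrillar or microfibrillar collagens; 2 were without KsJ 6-week replicate 2 or KsJ 16-week replicate 1, and 7 without 6J 6-week replicate 2. Col3a1, a fibrillar collagen, stood at 5.97, 6.34, 6.28 and 6.23 at 6 weeks and at 3.83, 4.40, 5.82 and 5.76 at 16 weeks, below every younger array but farther below in KsJ islets. Its difference was -1.25 ± 0.32 (limma adjusted p = 0.746), and -2.04 against -0.47 by strain. Col1a1, the main chain of type I collagen, stood at 5.66, 6.21, 6.28 and 5.90 and then at 4.57, 4.69, 5.46 and 5.50, a difference of -0.96 ± 0.21, again without overlap. Col1a2, its partner chain, differed by -0.67 ± 0.23 and Col6a2 by -0.59 ± 0.23.

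Of the non-collagen matrix genes, Sparc, a collagen-binding glycoprotein, lay at 7.81, 7.99, 7.72 and 7.53 at 6 weeks and at 6.98, 6.92, 7.16 and 7.35 at 16 weeks, a difference of -0.65 ± 0.17 without overlap. Postn, the periostin of remodelling matrix, lay at 5.95, 5.87, 6.05 and 5.85 and then at 4.53, 3.68, 5.63 and 5.67, a difference of -1.05 ± 0.33. Pdgfrb, the receptor of pericytes and stellate cells, differed by -0.81 ± 0.23, and 6J 6-week replicate 1 was its highest array of 6 weeks at 7.50 beside 7.10 to 7.12. Dcn, the proteoglycan decorin, differed by -1.21 ± 0.42, with KsJ 16-week replicate 1 lowest at 4.66 beside 6.46 to 6.71. Igfbp7, a binding protein of vessels and stroma, stood between 11.47 and 11.60 at 6 weeks, at 10.80 and 10.49 in KsJ and at 11.45 and 11.30 in 6J islets of 16 weeks. Its difference was -0.52 ± 0.19.

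Endothelial genes had a median of -0.50 over 20, -0.85 in KsJ and -0.13 in 6J islets (all genes -0.26 and 0.04), with 5 lower at an unadjusted limma p under 0.05 (3.94% of all genes). That count was 1 without KsJ 6-week replicate 1, 2 without KsJ 6-week replicate 2, 6J 6-week replicate 1 or either KsJ array of 16 weeks, and 12 without 6J 6-week replicate 2. Sox18, a vascular transcription factor, lay at 6.81, 6.44, 6.38 and 6.48 and then at 5.52, 5.11, 6.19 and 6.05, a difference of -0.81 ± 0.24 without overlap. Aplnr, the apelin receptor, differed by -0.57 ± 0.19, Plvap, which forms the diaphragms of fenestrated capillaries, by -0.56 ± 0.23 and Pecam1, the platelet and endothelial adhesion molecule, by -0.51 ± 0.21. Macrophage genes had a median of -0.28 over 22, with 4 lower at an unadjusted p under 0.05 (3.94% of all genes), but 0 without KsJ 6-week replicate 2, 0 without KsJ 16-week replicate 2 and 1 without both arrays that stood apart. The 4 were the adaptor gene Tyrobp at -0.64 ± 0.24, the lysosomal Cd68 at -0.59 ± 0.22, the Fc receptor chain Fcer1g at -0.58 ± 0.23 and the receptor Csf1r at -0.64 ± 0.27. In KsJ islets both arrays of 16 weeks lay below both of 6 weeks for Fcer1g, at 5.38 and 5.56 against 6.54 and 6.61, whereas the 6J arrays spanned 6.46 to 6.62 at both ages. The limma adjusted p of these 8 genes was 0.746.

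Lymphocyte genes had a median of -0.55 over 15 genes, but with a pattern by array. Their mean was 5.08 on KsJ 6-week replicate 2 and 5.38 on 6J 6-week replicate 2, and 3.68 and 3.80 on the other arrays of 6 weeks, beside 3.80 to 4.16 at 16 weeks. Ptprc, the CD45 gene of blood cells, followed it, at 6.73 and 6.05 on these 2 arrays and 5.25 and 5.33 on the others of 6 weeks, and Cd79a, a chain of the B-cell receptor, at 5.54 and 5.89 against 5.01 and 4.64. Cxcl13, the chemokine that draws B cells into follicles, stood at 4.27 and 8.49 in KsJ and 8.21 and 9.42 in 6J islets of 6 weeks, and between 4.41 and 5.91 on the 4 arrays of 16 weeks. Its difference was -2.55 ± 0.81 (limma adjusted p = 0.746), and the ages overlapped through the KsJ array at 4.27. Msln, the mesothelial surface protein, differed by -1.04 ± 0.31. At 6 weeks it stood at 6.82 and 6.39 in KsJ and 8.49 and 8.37 in 6J islets, lower on replicate 2 of each strain. The mean over 9 lymph node and mesothelium genes was instead higher there, at 5.92 and 6.23 on 6-week replicate 2 of KsJ and 6J. It lay between 5.01 and 5.62 on the other 6 arrays. The part of lymph node or mesothelium in these values was not tested.

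**Figure D4:**
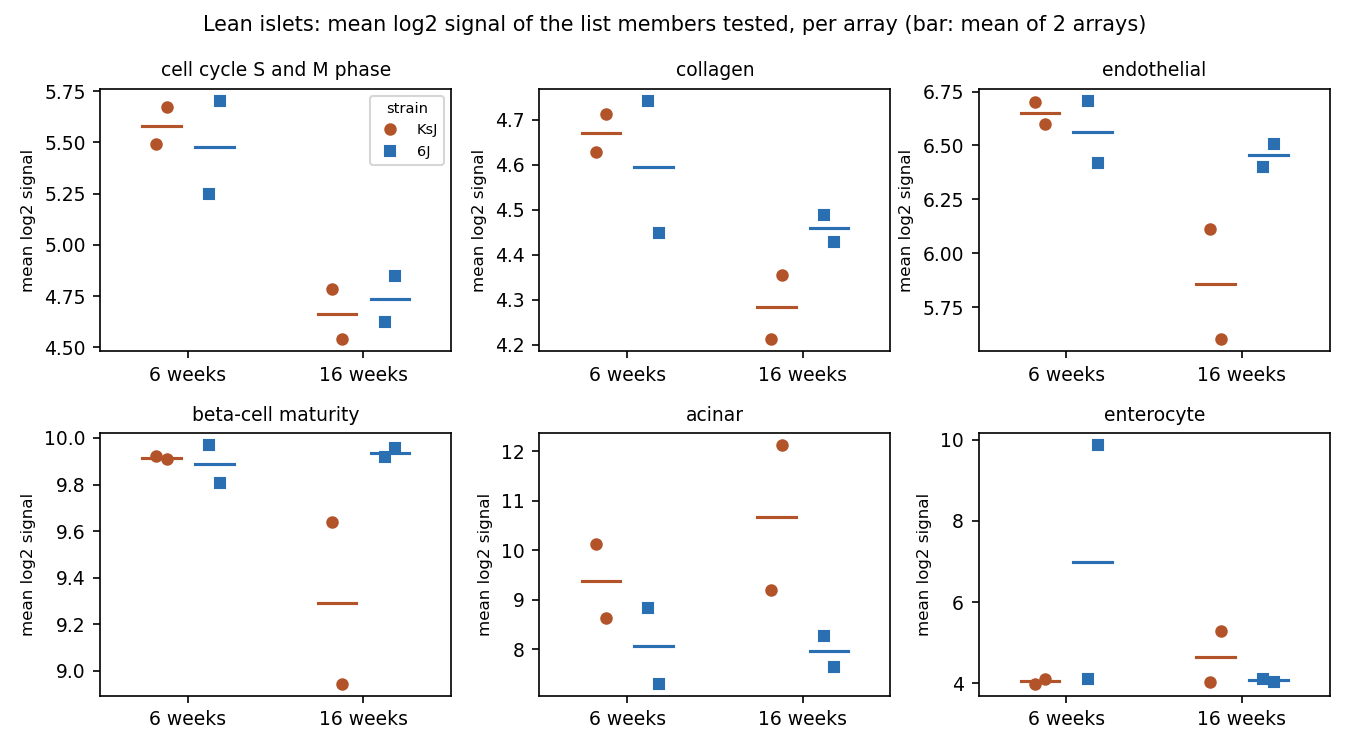
Mean log2 signal of the tested members of 6 gene lists, 1 point per array, by age and strain; the bar is the mean of 2 arrays. The S and M phase mean separates the ages in both strains (5.25 to 5.70 against 4.54 to 4.85), whereas the acinar mean has 1 high array (12.12, KsJ 16 weeks) and the enterocyte mean 1 (9.87, 6J 6 weeks).

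Lipid genes with the largest differences lay lower at 16 weeks as well. Fabp4, the fatty acid carrier of adipocytes, capillaries and macrophages, stood at 6.03, 6.95, 6.14 and 6.41 at 6 weeks and at 5.54, 5.34, 5.19 and 4.73 at 16 weeks. The ages did not overlap, and the difference was -1.19 ± 0.23 (limma adjusted p = 0.746), with -1.05 in KsJ and -1.32 in 6J islets. The adipocyte list as a whole had a median of -0.10 over 8 genes, near that of all genes. The list of sterol and fatty acid synthesis had a median of -0.28 over 22 genes, 21 of them below 0, with 4 lower at an unadjusted p under 0.05 (3.94% of all genes). The count was 1 without either KsJ array of 6 weeks, 2 without 6J 6-week replicate 1, 7 without 6J 6-week replicate 2 and 10 without both arrays that stood apart. The 4 were Nsdhl, an enzyme of late cholesterol synthesis, at -0.50 ± 0.16, Stard4, a sterol carrier, at -0.61 ± 0.22, Elovl6, a fatty acid elongase, at -0.81 ± 0.32, and Dhcr7, the last step to cholesterol, at -0.34 ± 0.15. Nsdhl lay between 8.21 and 8.40 at 6 weeks and between 7.54 and 8.12 at 16 weeks, and Stard4 between 6.23 and 6.57 and then 4.94 and 6.11. These were the 2 genes of the 22 without overlap between the ages (2.7% of all genes were lower that way). For Elovl6 the highest array was the enterocyte-rich one of 6J, at 10.84, and the lowest the acinar-rich one of KsJ, at 8.44.

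Among lists with at least 6 tested genes, the ATF4 stress response list had the highest median after the acinar genes. It had a median of 0.32 over 23 genes, 19 of them above 0, with 0.16 in KsJ and 0.41 in 6J islets. At an unadjusted limma p under 0.05, 2 were higher (1.11% of all genes). The mean over the list was 7.18 and 7.19 in KsJ and 6.86 and 6.86 in 6J islets of 6 weeks, and 7.23, 7.86, 7.26 and 7.19 at 16 weeks. The high value of 7.86 belonged to the acinar-rich array, and without both arrays that stood apart the median was 0.16 with 15 above 0. Nupr1, a stress-induced chromatin protein, lay at 7.83, 6.90, 7.35 and 6.23 and then at 8.13, 10.71, 7.80 and 7.75, a difference of 1.52 ± 0.57 with the acinar-rich array on top. Mthfd2, a mitochondrial folate enzyme, lay at 8.74 and 8.70 and then 8.69 and 9.35 in KsJ and at 8.20 and 7.80 and then 8.74 and 8.60 in 6J islets, a difference of 0.49 ± 0.20. Aldh1l2, another folate enzyme, differed by 0.79 ± 0.40 and Eif4ebp1, a repressor of translation, by 0.94 ± 0.51, each highest on the acinar-rich array at 8.71 and 9.45. The list of ER chaperones had a median of -0.01 over 28 genes.

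Lists of gut and regenerating-protein genes lay farther from the median of all genes, and turned sign without 1 array. The enterocyte list had a median of -1.19 over 21 genes, goblet and Paneth cells -0.68 over 10 and the Reg family -0.57 over 6, and the enterocyte-rich 6J array of 6 weeks had the highest mean of the 8 for each, at 9.87, 7.77 and 9.17. Without that array the medians were 0.32, 0.36 and 0.27. Oxidative phosphorylation had a median of -0.14 over 37 genes. At an unadjusted limma p under 0.05, 1 was lower (3.94% of all genes), the complex IV subunit gene Cox5b at -0.49 ± 0.16. Antioxidant genes had a median of -0.24 over 29, with Txnrd1, thioredoxin reductase, at -0.49 ± 0.20 and Nfe2l2, the NRF2 factor, at -0.33 ± 0.15. These were the 2 of the 29 whose older arrays all lay below the younger ones (2.7% of all genes). Clock genes had a median of -0.09 over 17, with Nr1d1, a repressor of the clock, at -0.43 ± 0.17, Dbp at -0.46 ± 0.21, Cry1 at -0.35 ± 0.17 and Npas2 at -0.62 ± 0.32; the time of day of sampling is not given in the sources used here. Immediate-early genes, which respond within minutes to handling, had a median of 0.05 over 28, with Nr4a1 at -0.81 ± 0.37, Ier2 at 0.76 ± 0.34 and Dusp2 at -0.39 ± 0.13. Dusp2 was the 1 gene of the 28 without overlap between the ages (2.7% of all genes were lower that way). The mean of the immediate-early genes was 7.38 on KsJ 6-week replicate 2 and 7.19 on KsJ 16-week replicate 1 and between 5.79 and 6.40 on the other 6 arrays. Whether the arrays with high values were handled in another way was not tested. Genes of senescence and ageing had a median of -0.15 over 16, with 0 members at an unadjusted p under 0.05.

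Genes higher at 16 weeks were fewer than lower ones, by a margin that depended on the setting. Beside 611 lower and 173 higher at an unadjusted p under 0.05, there were 648 and 539 with no filter on dim genes and 629 and 462 without KsJ 16-week replicate 1. Of the 91 genes whose 4 older arrays all lay above the 4 younger ones, 81.3% had a 16-week mean under 5, beside 37.9% of the 419 lower genes and 35.2% of all genes. The acinar-rich KsJ array had raised dim values, with a lower quartile of 2.78 beside 2.34 to 2.49 on the other 7 lean arrays. Predicted genes (Gm, Rik, LOC and other unnamed models) were left out of the ranking that follows. Of the rest, the 6 with the smallest p whose 16-week arrays lay above 6-week arrays in both strains included 3 miRNA genes. Mir3473b lay at 3.05, 2.67, 2.31 and 2.58 at 6 weeks and at 3.55, 4.54, 4.63 and 3.60 at 16 weeks, and Mir193b at 3.66, 2.73, 2.68 and 2.83 and then at 3.97, 4.54, 3.83 and 3.81. The 6-week means of both were below the cutoff for dim genes, so levels alone are given. Mir680-2 lay at 5.79, 5.08, 5.43 and 5.39 and then at 6.15, 6.45, 6.12 and 6.22, without overlap, a difference of 0.81 ± 0.18 (limma adjusted p = 0.746). The array clusters cover the precursor RNA and do not measure the mature miRNA as such.

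The mature sequences of these 3 genes are shown because a short sequence that recurs in the genome limits what a cluster can tell apart. They are credited to RefSeq (GRCm38.p6), 5′ to 3′, with the seed (bases 2 to 8) in capitals. Their 4 seeds differ.
mmu-miR-3473b, chr10:41670774-41670793, plus strand: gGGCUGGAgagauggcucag
mmu-miR-193b-5p, chr16:13449533-13449554, plus strand: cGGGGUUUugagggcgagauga
mmu-miR-193b-3p, chr16:13449570-13449591, plus strand: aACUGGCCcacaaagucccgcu
mmu-miR-680, chrX:144297790-144297810, plus strand: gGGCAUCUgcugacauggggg

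The letters of miR-3473b occurred in 32 of 32851 promoters searched and those of miR-680 in 1, whereas neither arm of miR-193b occurred in any. The table lists miR-680 at 3 loci with the same mature sequence, so the 3 copies cannot be told apart by it. The 3 protein-coding genes of the set were Odf3l1, a relative of a sperm tail protein, at 0.57 ± 0.13, Nol3, an inhibitor of apoptosis, at 0.64 ± 0.15 and Rnf182, a ubiquitin ligase, at 0.67 ± 0.17. Nol3 lay at 5.68, 5.64, 5.32 and 5.39 and then at 6.18, 5.99, 6.18 and 6.26, the older arrays all above the younger ones. Igfbp2, a binding protein of insulin-like growth factors, lay between 2.84 and 3.11 and then between 3.20 and 3.92, with its 6-week mean below the cutoff.

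The S and M phase list was compared with the obese mice of each strain in a fit added after the values were seen, which took all 16 arrays of the larger table. The lean and the obese groups share no arrays in it. Both ob/ob arrays of 6 weeks had high Uty (7.25 and 7.61) and both of 16 weeks high Xist (8.62 and 8.60), so in ob/ob islets age and sex cannot be told apart. ob/ob 6-week replicate 2 stood apart from the other 3 ob/ob arrays, with Aldh1a3 at 5.43 against 10.16 to 10.52 and Nnat at 7.28 against 4.59 to 5.65, whereas lean arrays had 4.01 to 5.82 and 6.19 to 8.09. The enterocyte mean was 5.92 and 8.33 on the db/db arrays of 16 weeks and 4.96 and 4.39 on those of 6 weeks. The mean over the 36 genes was 6.02 and 5.41 in ob/ob islets of 6 weeks and 5.53 and 6.09 at 16 weeks, so that the ages overlapped. The median difference over the list was 0.11, beside -0.74 in lean 6J islets. It was -0.18 without the array that stood apart, -0.14 without ob/ob 16-week replicate 2 and 0.35 without ob/ob replicate 1 of either age. In db/db islets the mean was 6.07 and 6.09 and then 4.79 and 4.51, and the median difference was -1.48 beside -0.89 in lean KsJ islets. The difference between lean and ob/ob age effects had a median of -0.80 over the list, 14 of the 36 genes had an unadjusted limma p under 0.05 (2.77% of all genes), and 0 were called (smallest adjusted p 1). Without the ob/ob array that stood apart the median was -0.61, and without lean 6J 6-week replicate 2 it was -0.49. It was -0.55 without ob/ob 16-week replicate 2 and -0.75 without lean 6J 16-week replicate 1. Leaving out lean 6J 16-week replicate 2 gave -0.95, and lean 6J 6-week replicate 1 -1.19. Leaving out ob/ob 16-week replicate 1 gave -1.10, and ob/ob 6-week replicate 1 -1.07. For lean against db/db the median was 0.54, and 5 of 36 had an unadjusted limma p under 0.05 (13.1% of all genes). None of the 36 was called, beside 1 gene of all those tested (0.00644%), and the smallest adjusted p in limma was 0.361. Leaving out 1 array gave medians from 0.36 to 0.70. Outside the list Pbk differed from its db/db age effect by 1.07 ± 0.39 (adjusted p = 0.361). Mki67 stood at 7.04 and 6.36 in ob/ob islets of 6 weeks and at 6.01 and 7.03 at 16 weeks, and its difference from the lean age effect was -1.46 ± 0.66.

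**Figure D5:**
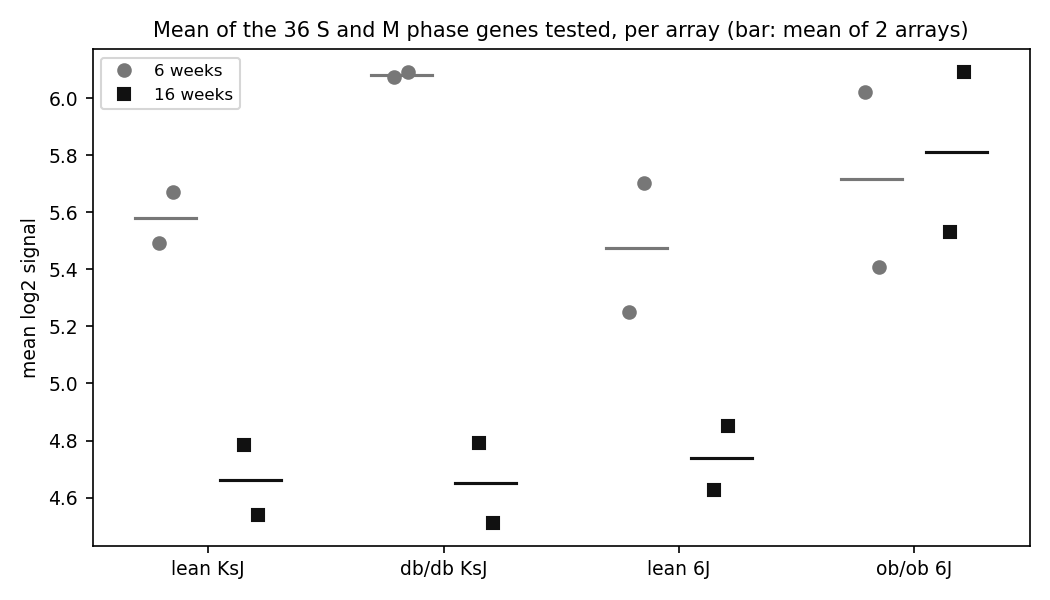
Mean log2 signal over the 36 tested S and M phase genes, 1 point per array, in lean and obese islets of both strains at 6 weeks (grey circles) and 16 weeks (black squares); the bar is the mean of 2 arrays. Lean KsJ, db/db and lean 6J islets lie lower at 16 weeks (4.51 to 4.85), whereas ob/ob islets lie between 5.41 and 6.09 at both ages, with the array that stands apart lowest at 5.41.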

How the data were processed

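Islet RNA was hybridised to Affymetrix Mouse Gene ST arrays, and the authors deposited a log2 signal for each transcript cluster. MAS5, RMA and Partek were named, per the submitters' processing notes, without version, role or order. Clusters with a single gene in the platform annotation were kept (23521 of 41034), symbols were updated through Entrez IDs with the GRCm38.p6 gene table, and the cluster with the highest mean stood for a gene. Of 22180 genes, the 15526 at or above the 30th percentile of the mean over 16 arrays (a log2 value of 2.99) were tested. Of 886 planned list members, 84 could not be tied to a separate cluster and are not analysed here.

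limma 3.58.1 in R 4.3.3 fitted age with strain as a block to the 8 lean arrays (5 residual degrees of freedom), or 1 mean per group for the contrasts within and between strains (4 degrees), with eBayes and two-sided p-values adjusted by the Benjamini-Hochberg method over all genes tested; calls were made below an adjusted p of 0.05. Named genes were, in each direction, those with the smallest p whose arrays separated the ages in both strains, with predicted genes left out. From each list the 4 or fewer of smallest p were named, and a preset group of islet, sex-linked and tissue genes. Genes named outside this rule are marked in the text. The members and lists were chosen with earlier results of these data known, and lists were described by counts and medians without a test. Alternatives changed the filter, the normalization, the variance model, the arrays and the covariates, and left out each array in turn. The script was tested on simulated data. Depth has no counterpart on arrays: the number of arrays limits the precision. Plots used matplotlib 3.10.9 (Python 3.11.15).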

Additional observations from a re-analysis of the deposited data

Results flagged for a closer look

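Within each age, the 4 lean arrays were searched for a value whose gap to its nearest neighbour was too large a share of the range (Dixon's critical value). Of 274 sets of 4 arrays, 26 (9.49%) held one, whereas chance alone gives about 5%, and each set mixes the 2 strains. No cause was tested.

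KsJ 16-week replicate 2 stood apart from the other 3 arrays of 16 weeks in 10 sets. It was low for Cdkn2c (5.10) and Iapp (12.01) and high for Nupr1 (10.71), Ptf1a (8.24), Sis (5.20) and Reg3b (8.44). It was also high for the mean of the genes disallowed in beta cells (5.86), the ATF4 stress response (7.86), the lymphocyte genes (4.16) and the enterocyte genes (5.28).

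6J 6-week replicate 2 stood apart in 6 sets of 6 weeks. It was high for Anln (5.42), Sis (10.94) and the means of the enterocyte (9.87), goblet and Paneth (7.77) and glycolysis and hypoxia (7.76) genes, and low for Ppp1r1a (10.25).

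The other 10 sets were spread over 4 arrays. KsJ 16-week replicate 1 was the single array of its age with high Uty (7.86) and low Xist (3.24), and it was low for Dcn (4.66) and the mean of lipid uptake, storage and oxidation (6.04). 6J 6-week replicate 1 was low for Rest (3.74) and the alpha-cell mean (8.30) and high for Pdgfrb (7.50) and the sterol and fatty acid synthesis mean (8.34). KsJ 6-week replicate 1 was high for Mir193b (3.66), and KsJ 6-week replicate 2 low for Iapp (12.45).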

How the results depend on the processing

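The age effect with strain as a block called 0 genes in the main analysis and under all 24 alternatives. For the 97 genes named, 2289 of 2311 values under the alternatives kept their sign. Leaving out 1 array gave 0 to 5952 calls in KsJ islets (5952 without KsJ 16-week replicate 1, 1476 higher and 4476 lower, and 1, higher at 16 weeks, without replicate 2), 0 to 271 in 6J islets (271, all lower, without 6J 6-week replicate 1) and 0 to 4064 for the difference between strains (4064 without KsJ 16-week replicate 1 and 195 without 6J 6-week replicate 1). A lone array left in a group was assumed to vary like the others. Array weights, which gave KsJ 16-week replicate 2 the lowest weight (0.0951), turned Cdkn2a to 0.22, Cdkn1a to 0.21, Mafa to 0.10, Igf2 to 0.073, Gcg to 0.0484, Sst to 0.0068, Ctrc to -0.59 and Cdca8 to -0.0383. Cdkn2a was also above 0 with quantile normalization (0.0014) and both tables joined (0.0719). Ctrc was -0.61 without both arrays that stood apart, Sis 0.067 with acinar and enterocyte covariates and Uty 0.0298 with Xist as a covariate. Without 1 array, Cdkn2a ranged from -0.12 to 0.10, Ctrc from -0.31 to 1.15, Sis from -2.66 to 0.69, Uty from -2.62 to 0.11 and Cdca8 from -0.033 to 0.22. The cause was not tested.

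No paired analysis was possible because the replicate numbers are accession order and tie no array of one group to an array of another. With 2 arrays per group and 4 per age the number of arrays limits the precision, and dim genes (an age mean under 2.99) are given as levels.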
